A study of Mus musculus with 6 samples.

Results

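The elastic fibre genes studied here encode elastin, the proteins of the microfibrils on which elastin is laid down, and the enzymes that cross-link it. Members were taken by gene symbol: every probe set (a set of short probes that reads the RNA of a gene) whose only symbol in the platform annotation was Eln, Fbn1, Fbln1, Fbln2, Fbln5, Lox, Loxl1, Mfap2, Mfap4 or Mfap5. Of these 10 genes, 8 had at least 1 probe set, giving 15 of the 10833 probe sets with a single symbol, for 8251 genes. No probe set had Fbn1 (fibrillin-1, the backbone of the microfibril) or Fbln5 (fibulin-5, which tethers elastin to microfibrils and cells) as its only symbol. These genes were therefore not analysed here, and probe sets with several symbols were not searched. Fbln1 had 4 probe sets, Eln, Lox, Mfap4 and Mfap5 had 2 each, and Fbln2, Loxl1 and Mfap2 had 1 each. A filter on low signal kept 11 of the 15, with all 8 genes represented.

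Whole lung RNA came from mice labelled ICR, DBA and C57 (ICR is an outbred stock, and no substrain is named). In each strain there was 1 smoked array, from exposure to the smoke of 3 cigarettes a day on 5 days a week for 4 weeks, and 1 control array, labelled normal lung. Every title ends in mouse 1. The sources used here give no age, sex or genotype, and leave unstated whether RNA of several mice was pooled. The 6 arrays therefore give 3 smoked and control pairs and 2 arrays per strain, with no replicate of a group within a strain, and their number limits the precision of every value.

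Elastic fibres give lung tissue its recoil. Fibroblasts and smooth muscle cells secrete tropoelastin, which gathers on microfibrils built of fibrillin and associated glycoproteins and is cross-linked into an insoluble polymer by lysyl oxidases. Most elastin is made while the lung grows and the polymer turns over slowly, and its breakdown by elastases is a textbook feature of emphysema, a disease linked to smoking.

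Median deposited intensity was 26.0 on the ICR smoked array, 52.5 on the ICR control array and 60.3 to 85.0 on the other 4. Ratios of 3' to 5' signal, a measure of RNA quality, were also highest on the ICR smoked array, at 4.75 for beta-actin and 2.39 for Gapdh. The C57 smoked and control arrays came next, at 2.51 and 2.75 for beta-actin and 1.38 and 1.69 for Gapdh. On the ICR control and both DBA arrays the ratios were 1.46 to 1.66 and 0.952 to 1.11. Comparisons of strains with C57 thus also set arrays of unlike ratios side by side. Every member read lower in deposited units on the ICR smoked array than on the ICR control array, as did the array's median, and the part of RNA quality in the members' values was not tested. Comparisons therefore use log2 of the intensity plus 8.05, brought to a common distribution on all arrays (quantile normalization), and fold changes are on that scale, which understates changes of dim probe sets. Levels of different probe sets cannot be compared, since probes differ in brightness. Of 5 lung epithelial markers measured, Sftpc, Scgb1a1, Ager and Sftpb read 1113 or more on every array and Sftpd read 4.74 to 24.5.

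RefSeq (GRCm38.p6) places the 8 measured genes on chromosomes 5 (Eln), 15 (Fbln1), 6 (Fbln2 and Mfap5), 18 (Lox), 9 (Loxl1), 4 (Mfap2) and 11 (Mfap4). The regions around the annotated start of Fbln1 and of Mfap2 are shown from 250 bases before to 50 after the start, from RefSeq. Fbln1 is a gene the strain comparisons below turn on. Among the tested member probe sets, only that of Mfap2 had lower normalized values on the smoked array of every strain. A promoter entry was found for 5 of the 10 genes. Capitals mark the core bound by the aryl hydrocarbon receptor, which senses smoke constituents, searched as GCGTG on both strands.
Fbln1 (chr15:85205699-85205998, + strand): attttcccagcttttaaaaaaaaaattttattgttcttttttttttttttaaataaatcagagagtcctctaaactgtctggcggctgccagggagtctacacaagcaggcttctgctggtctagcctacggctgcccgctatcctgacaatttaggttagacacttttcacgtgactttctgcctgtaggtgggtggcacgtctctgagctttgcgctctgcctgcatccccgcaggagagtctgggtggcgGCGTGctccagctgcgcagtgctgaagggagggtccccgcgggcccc
Mfap2 (chr4:141010174-141010473, + strand): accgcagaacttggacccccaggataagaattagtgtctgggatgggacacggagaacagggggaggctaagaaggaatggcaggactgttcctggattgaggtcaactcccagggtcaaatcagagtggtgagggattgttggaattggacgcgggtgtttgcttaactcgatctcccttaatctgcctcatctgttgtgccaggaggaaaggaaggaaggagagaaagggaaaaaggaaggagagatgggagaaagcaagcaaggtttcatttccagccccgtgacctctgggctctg
The core occurred 1 time in the Fbln1 region and 0 times in the Mfap2 region, and 32.4% of 32841 mouse regions of the same length hold it. TATAAA, the TATA box, was in neither region, and 13.6% of all regions hold it on either strand. These matches describe letters, not bound sites.

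**Figure D1:**
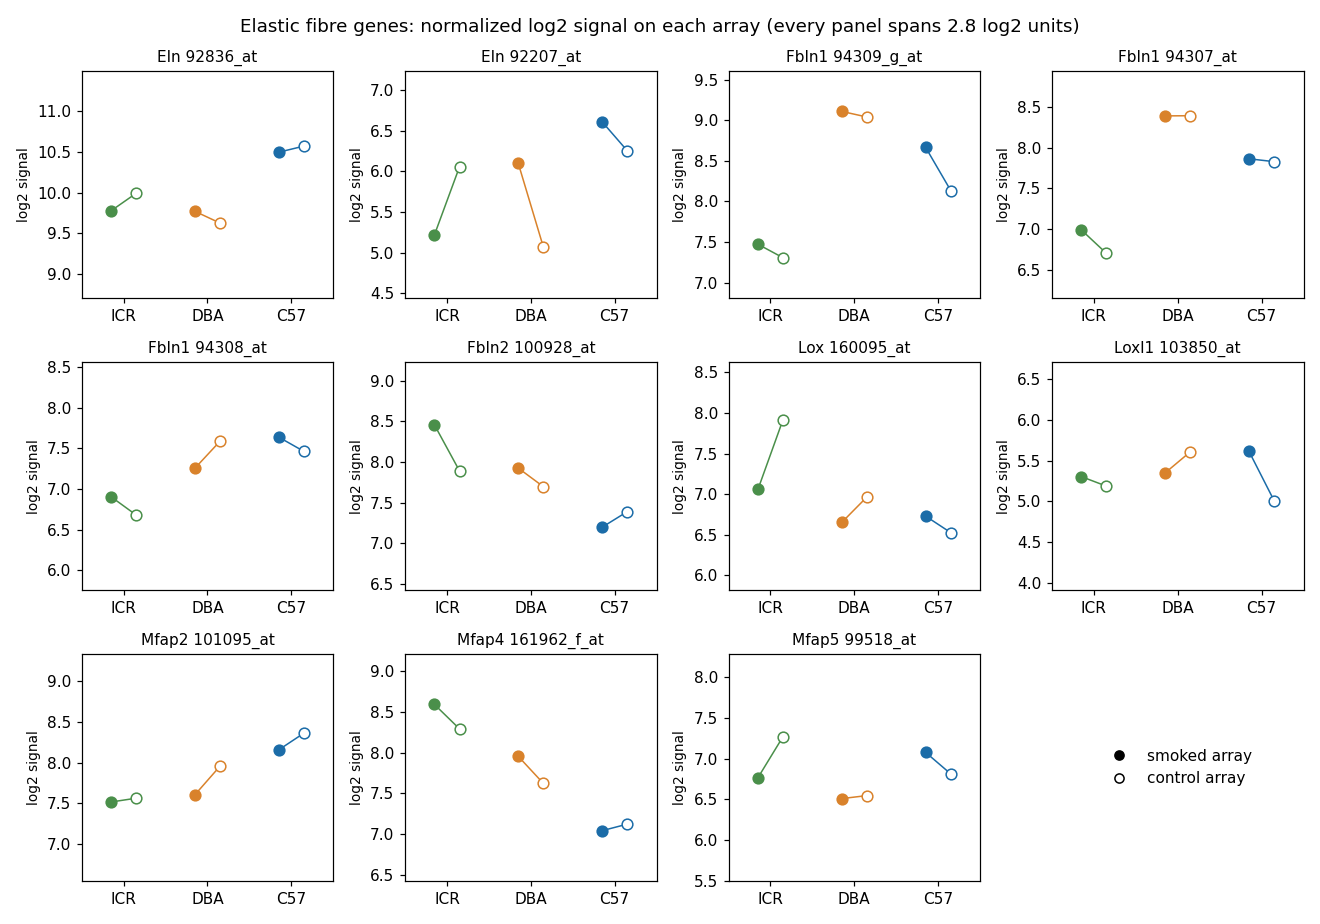
Normalized log2 signal (vertical axis) of the 11 tested probe sets of elastic fibre genes on each of the 6 arrays, by strain, with smoked arrays as filled and control arrays as open circles. For Fbln1 94309_g_at and 94307_at both ICR arrays lie below all others, and for Mfap4 161962_f_at both lie above all others.

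The first comparison asked whether 4 weeks of smoke changed elastic fibre genes in the lungs of all 3 strains. No member passed the test. The estimated smoke effects ran from log2 -0.32 (Lox) to 0.26 (Fbln1 94309_g_at), or 0.799-fold to 1.19-fold, with standard errors of 0.16 to 0.35. With limma, 0 of the 11 probe sets had an adjusted p below 0.05 and 0 an unadjusted p below 0.05 (smallest 0.213), where 0.0403% of all 7453 probe sets tested were called and 1.64% had an unadjusted p below 0.05. The members' median was 0.11, against 0.006 for all probe sets. Across members the 95% intervals reached from -0.88 (Lox) to 0.97 (Eln 92207_at), or 0.544-fold to 1.95-fold. The interval of each single probe set was narrower (-0.42 to 0.32 for Eln 92836_at), and smoke effects within it are not excluded for that probe set.

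Elastin, the elastic polymer itself, showed little difference at its brighter probe set. Eln 92836_at read 430.4, 1180.4 and 1671 on the ICR, DBA and C57 smoked arrays, against 939, 867 and 1812 on the control arrays. After normalization the differences were log2 -0.22, 0.14 and -0.08 in ICR, DBA and C57, a mean of -0.05 (SE 0.16, 95% interval -0.42 to 0.32). The dimmer Eln 92207_at read 13.8, 91.3 and 99.5 on the smoked arrays in the same order, against 54.8, 32.0 and 74.8 on the control arrays. Its differences of -0.84, 1.03 and 0.36 scattered over both directions, and the DBA value was the only one of the 11 in any strain that reached 2-fold, where 6.48%, 3.05% and 1.21% of all probe sets did so in ICR, DBA and C57. The estimates of the probe sets thus had opposite signs and intervals that both hold 0.

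Among the microfibril proteins and fibulins, Mfap2 and Fbln1 94309_g_at had the same direction in every strain without passing the test. Mfap2 (MAGP-1, a glycoprotein that binds fibrillin) read 81.2, 269 and 319 on the ICR, DBA and C57 smoked arrays, against 168.5, 278 and 391 on the control arrays. Its normalized differences were -0.05, -0.35 and -0.21 (mean -0.20, SE 0.19). For Fbln1 94309_g_at (fibulin-1, which binds fibronectin and elastin) the differences were 0.17, 0.07 and 0.53 (mean 0.26, SE 0.19), while its probe sets 94307_at and 94308_at had mixed signs. These 2 of 11 probe sets are 18.2%, where 17.6% of all probe sets had the same direction in the 3 strains. Mfap4 (a fibrinogen-domain glycoprotein of elastic fibres and vessel walls) had 0.30, 0.33 and -0.08 in ICR, DBA and C57. Mfap5 (MAGP-2, the second microfibril-associated glycoprotein) read 46.3, 124 and 144 at probe set 99518_at on the smoked arrays, against 137, 103 and 119 on the control arrays, which gave -0.51, -0.04 and 0.27. Fbln2 (fibulin-2, found in basement membranes and vessel walls) read 162, 336 and 157 on the smoked arrays and 213, 233 and 188 on the control arrays, with differences of 0.57, 0.23 and -0.19.

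For both cross-linking enzymes the strain pairs differed in direction, and neither passed. Lox, the copper-dependent oxidase that cross-links collagen and elastin, read 57.2, 137 and 109 at probe set 160095_at on the ICR, DBA and C57 smoked arrays, against 219, 140.4 and 94.96 on the control arrays. Its differences were -0.86, -0.31 and 0.20 (mean -0.32, SE 0.24). Loxl1, the family member most closely tied to elastin, read 14.7, 50.7 and 43.6 on the smoked arrays, against 26.0, 51.0 and 25.0 on the control arrays, with differences of 0.12, -0.26 and 0.61. The smoked arrays overlapped the control arrays for every member (the plot of the smoke effect gives the 3 pairs of each).

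**Figure D2:**
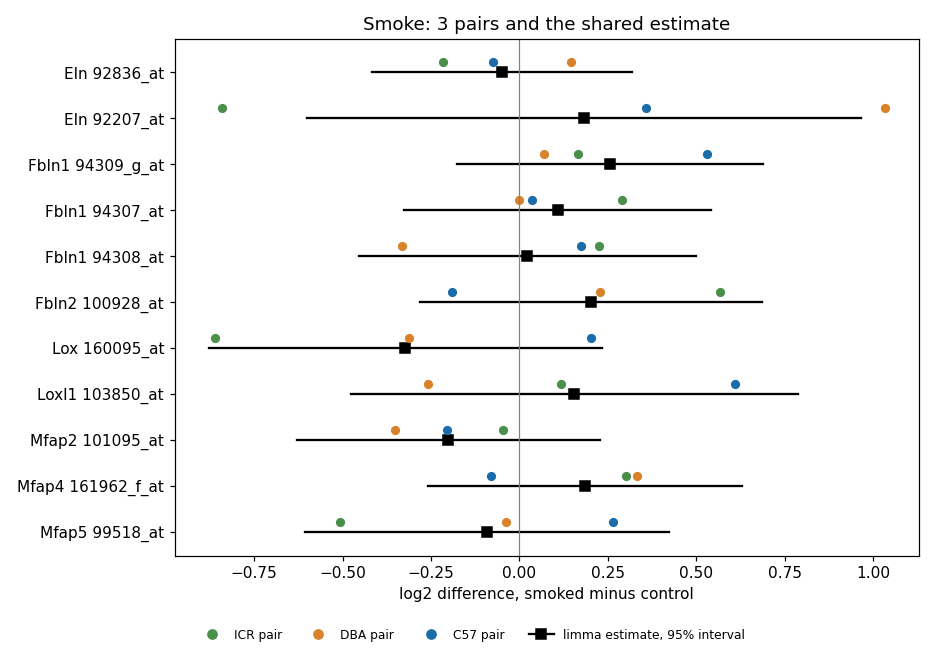
Log2 difference of smoked minus control (horizontal axis) for the 11 tested probe sets, with 1 coloured point per strain pair and the limma estimate as a square with its 95% interval. Every interval spans 0.

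A strain whose smoke response departed from that of the other strains was sought by fitting an extra smoke effect for it, a test with 1 residual degree of freedom. With limma 0 of 11 probe sets passed for each of ICR, DBA and C57, where 0%, 0.711% and 0.134% of all probe sets were called, and 1, 1 and 0 members had an unadjusted p below 0.05, against 14.3%, 3.94% and 3.01% of all probe sets. The member in question was Eln 92207_at both times: its smoke difference in ICR differed from that of the other strains by log2 -1.53 (SE 0.45, adjusted p = 0.320) and in DBA differed from them by 1.27 (SE 0.63, adjusted p = 0.9998). Eln 92836_at had -0.25 (SE 0.25) and 0.29 (SE 0.47) in the same tests. Without scaling between arrays, which leaves a median over all probe sets of -0.99 in the ICR test, 4 members passed there (Eln 92836_at and 92207_at, Lox and Mfap5), where 24% of all probe sets were called.

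Of 6 other genes of elastic fibre assembly tested (of 9 measured), 0 passed for smoke. Ltbp1, Ltbp2 and Ltbp4, of the latent TGF-beta binding protein family, had estimates of 0.18, 0.07 and 0.03. Bmp1, a protease that activates lysyl oxidase, had 0.29, Bgn (biglycan) 0.12 and Atp7a, which loads copper onto lysyl oxidase, 0.02. The median of the 6 genes was 0.10, against 0.007 over all genes tested, of which 0.0523% were called. Of 14 genes for fibrillar collagens and other matrix, 0 passed (median 0.06). Of 9 TGF-beta genes 0 passed, with estimates from -0.40 (Tgfbi) to 0.50 (Tgfb2) and a median of -0.13. Of 8 elastases tested 0 passed, with Mmp9, gelatinase B, at -1.33 (differences of -0.12, -3.68 and -0.19 in ICR, DBA and C57) and Mmp12, the macrophage elastase, at -0.87. Mmp12 read 56.96, 184.9 and 27.5 on the ICR, DBA and C57 smoked arrays, against 123, 745 and 34.4 on the control arrays, with normalized differences of -0.08, -2.33 and -0.22. Of 8 elastase inhibitors 0 passed. Slpi, a secreted inhibitor of neutrophil elastase, had differences of -0.48, -1.61 and -0.30 in ICR, DBA and C57 (mean -0.80, SE 0.26, unadjusted p = 0.0145 and adjusted p = 0.99995 by limma). Timp3, a matrix-bound inhibitor of metalloproteinases, had 0.40, 0.39 and 0.32 in ICR, DBA and C57 (mean 0.37, SE 0.14, unadjusted p = 0.0284 and adjusted p = 0.99995 by limma).

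The next comparisons asked how elastic fibre genes differed between strains, from the 2 arrays of each. Fbln1 was lower in ICR than in DBA and Mfap4 was higher in ICR than in C57, the only genes of the 8 with a call. All comparisons of strains share arrays with another (ICR with both others, for example), so their values are given side by side and overlaps between them were not tested. Because whole lung was measured, fewer cells of a type and less RNA per cell cannot be told apart.

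Fbln1 was lower in ICR than in DBA at 2 of its 3 tested probe sets. Fbln1 94309_g_at had normalized log2 values of 7.47 and 7.31 on the ICR smoked and control arrays, against 9.11 and 9.04 on the DBA arrays. The difference was log2 -1.68 (SE 0.23, 95% interval -2.21 to -1.15, adjusted p = 0.0120), or 3.21-fold lower in ICR. Fbln1 94307_at had 6.99 and 6.70 in ICR, against 8.39 and 8.39 in DBA, a difference of -1.55 (SE 0.23, adjusted p = 0.0172), or 2.92-fold lower. In deposited units Fbln1 94309_g_at read 78.1 and 139.7 on the ICR smoked and control arrays, against 756 and 584 on the DBA arrays. The third tested probe set, Fbln1 94308_at, was not called: 6.91 and 6.68 in ICR, against 7.26 and 7.59 in DBA, a difference of -0.63 (SE 0.26, adjusted p = 0.285). At all 3 probe sets the ICR arrays lay below the DBA arrays without overlap, as held for 9 of the 11 member probe sets in either direction and for 47.9% of all.

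In all, limma called 2 of 11 member probe sets (18.2%) in ICR against DBA and 4 had an unadjusted p below 0.05, where 1.17% and 15.6% of all probe sets did (38 higher and 49 lower in ICR, among those called, or 4 and 257 without scaling between arrays). Both calls are of 1 gene and may share target sequence. Both were lost without either ICR array, at an adjusted p of 0.0994 and 0.0913 for Fbln1 94309_g_at and 0.113 and 0.0853 for Fbln1 94307_at without the control and smoked array, while their differences stayed between -1.75 and -1.41. Against C57 the same probe sets had -1.01 (SE 0.23, adjusted p = 0.0663) and -1.002 (SE 0.23, adjusted p = 0.0693) in ICR. C57 was at 8.67 and 8.13, and at 7.86 and 7.83, on its smoked and control arrays. With arrays scaled to a common median both were called (adjusted p = 0.0384 and 0.0461), as were 2.36% of all probe sets. The median ICR against C57 difference over all probe sets was then -0.087, against -0.017 in the main fit. Leaving out either DBA array cannot change the ICR against C57 differences of -1.01 and -1.002, which the ICR and C57 arrays alone set. It changes only the spread used to test them, so it does not show how stable they are. DBA lay above C57 by 0.67 and 0.55, which did not pass (adjusted p = 0.278 and 0.417).

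Mfap4 ran the other way. Mfap4 161962_f_at had normalized log2 values of 8.59 and 8.29 on the ICR smoked and control arrays, against 7.04 and 7.12 on the C57 arrays. It was higher in ICR by log2 1.36 (SE 0.24, 95% interval 0.82 to 1.90, adjusted p = 0.0254), or 2.57-fold. DBA had 7.96 and 7.62, between them, and neither ICR against DBA (0.65, SE 0.24, adjusted p = 0.246) nor DBA against C57 (0.71, SE 0.24, adjusted p = 0.262) was called. Deposited intensities were 179.9 and 283 in ICR, 344 and 221 in DBA, and 139.7 and 153 in C57. As deposited, the ICR smoked array thus did not exceed the DBA arrays. The suffix _f marks a probe set whose probes match a family of similar sequences, and the second Mfap4 probe set, 96826_at, read at most 15.1 on any array and was not tested.

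The Mfap4 call was 1 of 11 member probe sets (9.09%) in ICR against C57, where 2.29% of all probe sets were called (69 higher and 102 lower in ICR, or 7 and 138 without scaling between arrays). It held under 9 of 14 alternatives, and was lost without the filter on low signal (adjusted p = 0.0685), without scaling (0.60, adjusted p = 0.494, where the median of all probe sets was -0.73), and without the ICR control (adjusted p = 0.130), ICR smoked (adjusted p = 0.0671) or C57 smoked array (adjusted p = 0.133). Of the 11 probe sets 8 had an unadjusted p below 0.05 (18% of all probe sets did), and the strains' arrays did not overlap for 9 of 11 (51.2% of all). Both signs were among the 8: Fbln2 (0.88, SE 0.26) and Lox (0.86, SE 0.30) were on the side of Mfap4, and Mfap2 (-0.72, SE 0.23) and Eln 92836_at (-0.65, SE 0.20) on the side of Fbln1, none of them called (adjusted p of 0.124 to 0.178).

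**Figure D3:**
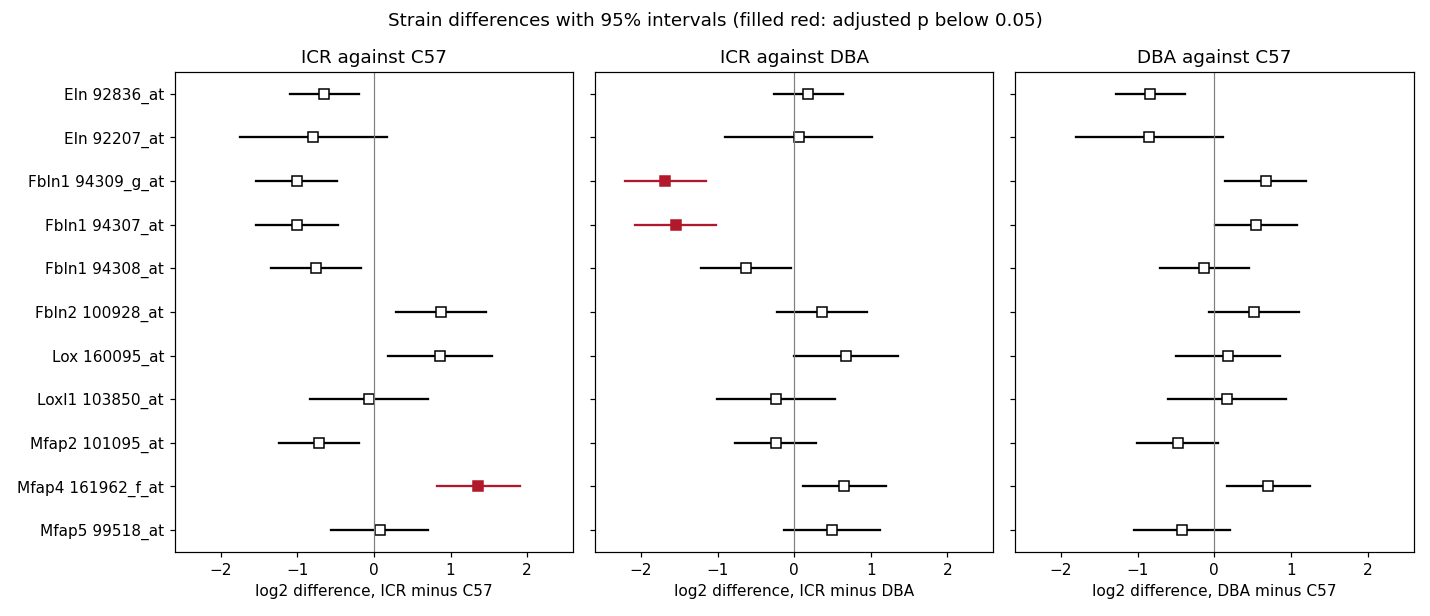
Log2 difference between strains (horizontal axis) with 95% interval for the 11 tested probe sets in each of 3 comparisons of 2 arrays against 2, with called probe sets filled in red. Fbln1 94309_g_at and 94307_at are called lower in ICR than in DBA, and Mfap4 161962_f_at higher in ICR than in C57.

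Elastin did not pass the test in any strain comparison. Eln 92836_at had normalized log2 values of 9.77 and 9.63 on the DBA smoked and control arrays, 9.78 and 9.99 on the ICR arrays, and 10.50 and 10.57 on the C57 arrays, so that both C57 arrays lay above all others. DBA was at -0.84 against C57 (SE 0.20, adjusted p = 0.0829) and ICR at -0.65 (SE 0.20, adjusted p = 0.133). Eln 92207_at had -0.85 (SE 0.42) and -0.79 (SE 0.42) in the same comparisons, and ICR and DBA did not differ detectably at either probe set (0.19, 95% interval -0.26 to 0.64, and 0.06). Scaled to a common median, the DBA difference of Eln 92836_at was -1.12 and was called (adjusted p = 0.0404), as were 1.85% of all probe sets. The median difference over all probe sets was -0.179 under that scaling, against -0.035 in the main fit. With limma 0 of 11 member probe sets were called in DBA against C57 and 4 (36.4%) had an unadjusted p below 0.05, where 1.73% and 11.5% of all probe sets did, and 8 had arrays that did not overlap, as had 52.5% of all (65 higher and 64 lower in DBA among those called, or 64 and 21 without scaling and 50 and 88 with a common median).

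Ordered by mean normalized value, Mfap4 and Fbln2 ran ICR, DBA, C57 from high to low, Mfap2 ran C57, DBA, ICR, and Fbln1 94309_g_at and 94307_at ran DBA, C57, ICR. For Fbln2 the means were 8.17, 7.81 and 7.29 in ICR, DBA and C57, and for Mfap2 7.54, 7.78 and 8.26. Lox had its highest mean in ICR (7.49, against 6.81 in DBA and 6.63 in C57), but its ICR smoked and control arrays stood 0.86 apart. Loxl1 (5.25, 5.48 and 5.31) and Mfap5 99518_at (7.02, 6.53 and 6.94) had no call in any strain comparison. For every tested probe set no neighbours in the order differed by the test, and for Fbln1 94309_g_at, Fbln1 94307_at and Mfap4 161962_f_at the strains at its ends did.

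**Figure D4:**
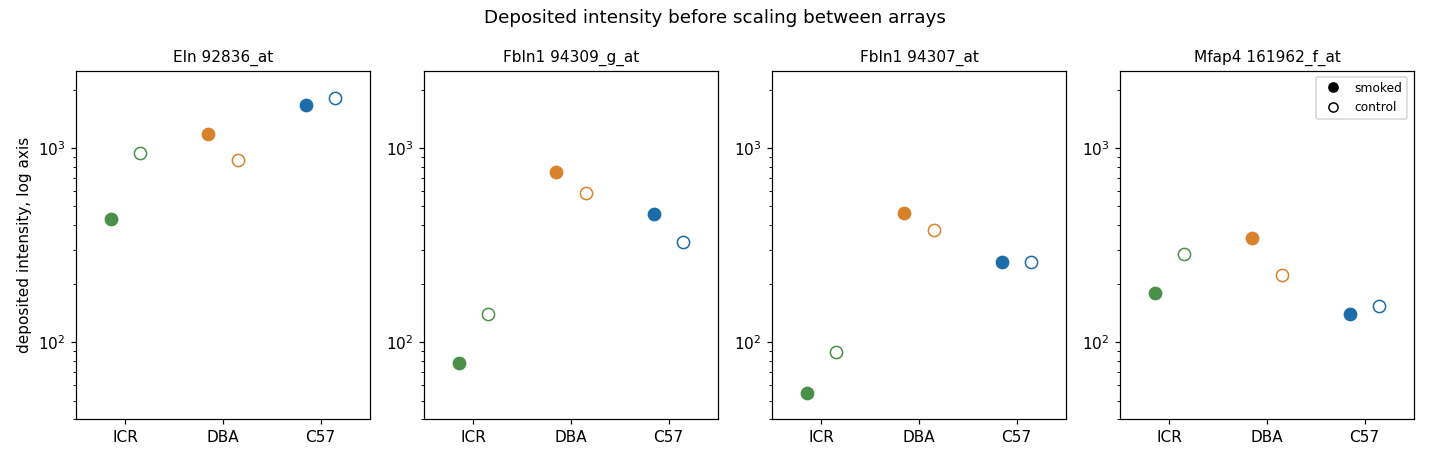
Deposited intensity (vertical log axis) of Eln 92836_at, Fbln1 94309_g_at, Fbln1 94307_at and Mfap4 161962_f_at by strain, without the quantile normalization used here. Smoked arrays are filled and control arrays open. The ICR smoked array is the lower one of its pair in all 4 panels, and both ICR arrays are the lowest for both Fbln1 probe sets.

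Of the 6 other genes of elastic fibre assembly tested, 0 passed in any of the 3 comparisons, with medians of 0.14 in ICR against C57, 0.02 in ICR against DBA and 0.03 in DBA against C57. Over all genes tested the medians were -0.03, 0.02 and -0.05, and 2.39%, 1.08% and 1.62% were called. Of the 14 collagen and matrix genes 0 passed in any comparison, with Postn (periostin) at 0.98 and Sparc at 0.72 in ICR against C57, and Tnc (tenascin C) at -1.27 in ICR against DBA. Of the 9 TGF-beta genes 0 passed, with Ccn2, a matricellular growth factor, at 1.08 in ICR against C57, and Tgfb1, the growth factor itself, at -1.24 in ICR against DBA and 1.02 in DBA against C57.

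Among elastases and their inhibitors the calls lay in DBA against C57. Mmp12 was higher in DBA by log2 3.01 (SE 0.49, adjusted p = 0.0163), the 1 of 8 elastases called. The DBA smoked and control arrays read 184.9 and 745, against 27.5 and 34.4 on the C57 arrays. The difference was 1.92 with the DBA control array left out and 4.10 with the smoked one left out, and it was not called in 4 of 14 alternatives. Of 8 inhibitors 4 were higher in DBA and 4 were not called: Timp2, a metalloproteinase inhibitor (log2 1.90, SE 0.37, adjusted p = 0.0400, or 1.14 and adjusted p = 0.328 without the C57 control array), and the antitrypsin genes Serpina1b (3.65, adjusted p = 0.00997), Serpina1c (2.93, adjusted p = 0.00576) and Serpina1e (3.57, adjusted p = 0.0180), near-identical copies that these _f probe sets may not tell apart. With 1 array left out their differences ran from 2.57 to 4.73, 2.25 to 3.60 and 2.25 to 4.89 in the same order, lowest without the C57 smoked array for Serpina1b and Serpina1c and without the DBA smoked array for Serpina1e, and highest without the C57 control array for the first pair and the DBA control array for Serpina1e. Without either ICR array, Mmp12 and all 4 inhibitors missed the threshold, at adjusted p of 0.0519 to 0.102; the tests of these 5 genes under other settings were chosen after their values were seen. In ICR against either strain 0 genes of both lists were called.

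Markers of cells that make or surround elastic fibres were counted beside these results. Of 8 smooth muscle genes 0 were called in any strain comparison, with medians of -0.40 in ICR against C57, -0.25 in ICR against DBA and 0.06 in DBA against C57, and deposited sums of 2051 to 7134 over arrays. Of 7 fibroblast genes 0 were called (medians 0.37, 0.17 and 0.13, sums of 5489 to 9901), of 3 mesothelial genes 0 (medians -0.75, -0.35 and -0.36) and of 4 cartilage genes 0 (medians -0.35, -0.07 and -0.13, with Matn1 and Hapln1 below 8.05 on every array). Skeletal muscle genes, markers of a tissue outside the lung, were called lower in ICR than in C57 for 6 of 9 (median -3.30, sums of 230.4 and 348 on the ICR smoked and control arrays, against 4715 and 6631 on the C57 arrays) and in DBA than in C57 for 6 of 9 (median -2.34, DBA sums of 744 and 1305), and in ICR than in DBA for 1 of 9 (Acta1, median -0.55). The 6 genes lower than in C57 were Acta1, Myh1, Tnnc2, Tnnt3, Atp2a1 and Actn3 in both strains. Stratified epithelial genes were called lower in ICR than in C57 for 2 of 4 (Krt13 and Mt4, median -2.97), with 0 of 4 in each other comparison. Of 5 endothelial genes 0 and of 2 fat genes 0 were called between strains, and of 4 lung epithelial genes Sftpb, a surfactant protein, was lower in ICR than in C57 (log2 -0.997, adjusted p = 0.0348). With smoke, 0 genes of any of these marker lists were called. The part of such tissue in the Mfap4, Fbln1 and Eln values was not tested.

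**Figure D5:**
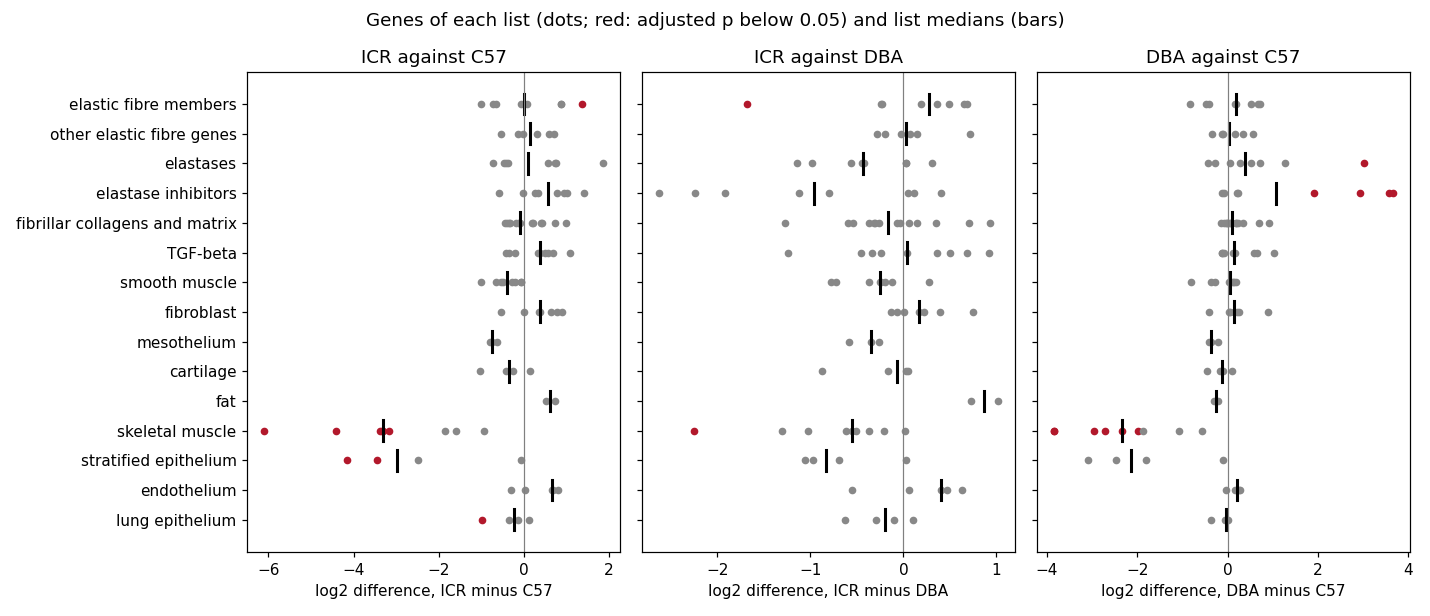
Log2 difference between strains (horizontal axis) of the tested genes of each list, 1 dot per gene, red where the adjusted p is below 0.05, with list medians as bars. Calls among members are Mfap4 (ICR against C57) and Fbln1 (ICR against DBA), and skeletal muscle genes lie farthest below 0 in both comparisons with C57.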

How the data were processed

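Lung RNA of 6 mouse samples was hybridised to Affymetrix arrays after Trizol extraction and biotin labelling, per the labels' protocols. The authors deposited 1 linear probe set intensity for each of 12488 probe sets per array; for the summary method and any scaling, the sources used here give nothing. The deposited intensity plus 8.05 (its 20th percentile) was taken to log2 and quantile normalized. Tests covered 7453 probe sets: those whose mean log2 value exceeded the 40th percentile, without the 66 controls. Of all probe sets, controls included, 10855 carried 1 symbol, 396 several and 1237 none; all 15 member probe sets matched RefSeq by gene identifier with no symbol changed. For gene lists a gene is its probe set with the highest mean.

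Smoke (strain as a block), strains (exposure as a term) and extra smoke effects of 1 strain were fitted in R 4.3.3 by lmFit and eBayes of limma 3.58.1, with a mean trend, with 2, 2 and 1 residual degrees of freedom, 2-sided, Benjamini-Hochberg over the 7453; called means an adjusted p below 0.05. With 1 array per group, p-values rest on how far the smoke differences of the strains disagree, a spread that may be technical. In the tests of 1 strain it is that of the other strains. By eBayes this spread is pooled with that of all probe sets tested, so the smoke fit counts 8.92 degrees of freedom in place of 2. The fits were also run on simulated data whose noise was equal on all 6 arrays. That setting does not cover the lower signal and higher 3' to 5' ratios of the ICR smoked array, and no result here rests on it. Members and lists were chosen with earlier results of these data known. Every member probe set is named; list genes are named where called or as examples with large differences in either direction (Timp3, named for its direction in all strains, was chosen after its values were seen), and the 5 probe sets closest to the brighter Eln probe set by Pearson correlation over the 6 arrays. Alternatives were other pseudocounts, filters, scalings and variance priors, no strain block, and arrays or pairs left out. Plots used matplotlib 3.10.9 in Python 3.11.15.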

Additional observations from a re-analysis of the deposited data

How the results depend on the processing

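With smoke, 0 members were called in the main fit and under all 12 alternatives, which included each strain pair left out and no strain block. Not every member was tested in each: Loxl1 was tested under 9 and Eln 92207_at under 11, being below the filter in the rest. In the main fit Loxl1 was barely above the filter, with a mean log2 value of 5.346 against 5.339. These probe sets were also missing from some alternatives of the other comparisons. The response tests of C57 and DBA also gave 0 members under 8 alternatives each, and that of ICR gave 4 without scaling and 0 under the other 7. In ICR against C57 the count of 1 member became 0 without the filter or without scaling, 3 with a common median, and 0 to 3 with 1 array left out. In ICR against DBA the count of 2 was 0 to 2 with 1 array left out (0 without either ICR array). In DBA against C57 the count of 0 became 1 with a common median and was 0 with any array left out. The smoke fit was itself paired, with strain as the block over the 3 smoked and control pairs, and without that block it also gave 0 members. Replicate numbers could add no pairing, since every array is numbered 1.

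No called member changed sign under any alternative. Estimates that were not called did. Without scaling (median of all -0.21) the smoke estimates became -0.037 for Fbln2, -0.044 for Mfap4, -0.12 for Fbln1 94307_at and -0.20 for Fbln1 94308_at. With 1 pair left out, the smoke estimate ran from -0.071 to 0.36 for Loxl1, -0.24 to 0.69 for Eln 92207_at, -0.15 to 0.035 for Eln 92836_at, -0.079 to 0.20 for Fbln1 94308_at and -0.27 to 0.11 for Mfap5. In DBA against C57, Fbln1 94308_at was 0.035 without scaling and -0.40 to 0.14 with 1 array left out, Loxl1 -0.17 to 0.51 and Lox -0.21 to 0.57. In ICR against C57, Mfap5 was -0.65 without scaling (where the median of all was -0.73), -0.00551 with a common median and -0.24 to 0.38 with 1 array left out, and Loxl1 -0.40 to 0.27. In ICR against DBA without scaling (median of all -0.89) the values were -0.57 for Fbln2, -0.27 for Lox, -0.28 for Mfap4, -0.77 for Eln 92207_at, -0.66 for Eln 92836_at and -0.45 for Mfap5, and with 1 array left out Loxl1 was -0.55 to 0.076 and Eln 92207_at -0.71 to 0.83. The response estimates without scaling were 0.23, 0.22 and 0.18 for Mfap2, Eln 92836_at and Fbln1 94307_at in C57, 0.58, 0.60, 0.26 and 0.52 for Mfap2 and Fbln1 94307_at, 94308_at and 94309_g_at in DBA, and -0.51, -0.82, -0.88, -0.78 and -0.74 for Fbln2, Mfap2, Mfap4, Fbln1 94307_at and Fbln1 94308_at in ICR, where the medians over all probe sets were 0.24, 0.76 and -0.99. The cause of these changes was not tested beyond the shift of the medians.

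Counts over all probe sets moved as well: the 171 of ICR against C57 became 44 without the filter and 32 to 517 with 1 array left out, the 87 of ICR against DBA became 38, 12 to 220, and 261 without scaling, and the 129 of DBA against C57 became 66, 102 to 298, and 85 without scaling. The smoke count of 3 ran from 0 to 11 with 1 pair left out, was 1 without the filter or the mean trend and 0 without the block. The response counts of 10 (C57) and 53 (DBA) ran from 0 to 36 and from 7 to 56, and that of ICR was 0 except for 1787 without scaling. Low signal on the ICR smoked array limits every value that rests on it.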

Other observations

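The 4 member probe sets below the filter on low signal were not tested. Fbln1 161628_r_at read 1.55 to 4.81 and Mfap4 96826_at 1.77 to 15.1, the first below 8.05 on all arrays. Lox 161177_f_at read 6.94, 29.2 and 5.85 on the ICR, DBA and C57 smoked arrays, against 14.7, 22.6 and 21.8 on the control arrays. Mfap5 99517_at read 4.61, 36.5 and 23.0 on the smoked arrays, against 17.3, 35.1 and 30.3 on the control arrays, with normalized differences of -0.66, -0.17 and -0.27. It thus had lower normalized values on the smoked array in every strain, where the tested Mfap5 probe set had differences of both signs.

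Over the 6 arrays, which share strains in pairs, the probe sets whose normalized values followed Eln 92836_at most closely were those of Spg21, Rhou, Snhg6, Cdc23 and 2610301B20Rik, with Pearson correlations from 0.997 to 0.984. No elastic fibre gene was among the first 5. This is a description of 6 points and carries no test.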
